A study of Mus musculus with 31 samples.

Results

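The respiratory chain of the inner mitochondrial membrane was followed through the differentiation of mouse embryonic stem (ES) cells into embryoid bodies (EBs). Its members were taken by gene symbol: every probe set of the Affymetrix MgU74Av2 array that carried exactly 1 symbol beginning with Nduf, Uqcr, Cox4 to Cox8 or Atp5, or equal to Sdha, Sdhb, Sdhc or Sdhd, was kept. Where several probe sets named a gene, the one with the highest mean signal over all arrays stood for it. This gave 71 genes of the 8251 genes that had a probe set of their own. They comprised 29 subunits of complex I, 4 of complex II, 7 of complex III, 15 of complex IV, 14 of complex V and 2 complex I assembly factors, Ndufaf1 and Ndufaf4, whose symbols also matched.

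All cells were of the B6 strain, and every RNA passed through 2 rounds of linear amplification before hybridisation. The 31 arrays fell into 5 groups. ES cells kept on mouse embryonic fibroblast (MEF) feeders with serum and leukaemia inhibitory factor (LIF) were sorted by flow cytometry for a green fluorescent protein driven from the Oct4 promoter (6 arrays, sorted ES cells). Other ES cells were depleted of feeders and passaged once on gelatin (6 arrays, gelatin ES cells), and from these EBs were formed in suspension without LIF and collected at day 4 (7 arrays), day 8 (6 arrays) and day 14 (6 arrays). The labels do not say which arrays came from separate cultures, so p-values measure the spread between these samples, which may be partly technical. EBs are mixtures of cell types, and in such bulk RNA fewer cells of a type and less RNA per cell cannot be told apart.

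The chain passes electrons from NADH through complex I, and from succinate through complex II, to ubiquinone, then through complex III and cytochrome c to complex IV, where oxygen is reduced. Protons pumped by complexes I, III and IV drive ATP synthase, complex V. Most subunits are encoded in the nucleus and a few in mitochondrial DNA. ES cells are known for small, rounded mitochondria and a strong reliance on glycolysis. Of the subunits encoded in mitochondrial DNA, 0 were among the named probe sets, so every value below concerns a nuclear gene.

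Signals are the authors' normalized linear values in arbitrary units and are compared only between arrays within a probe set. A change is a difference of mean log2 signal, given ± its standard error, and a member is said to rise or fall where limma's adjusted p was under 0.05 over all 12422 probe sets tested. Intervals are 95 % confidence intervals of a change, not adjusted for the number of probe sets. Gene positions are spans of the whole gene in RefSeq on GRCm38.p6. By mean signal, 44 of the 71 members lay above the 75th percentile of all probe sets and 3 below the 25th. Taking the brightest probe set favours high values in the 20 genes that had several.

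Before the results, 5 arrays have to be set apart from their groups. EB day 8 arrays 2, 4 and 6 differed from arrays 1, 3 and 5, with summed signals of 10 ES cell marker genes of 18158 to 20135 against 34803 to 42557, and of 9 endoderm marker genes of 30679 to 31909 against 16792 to 22089.7. EB day 4 arrays 6 and 7 had endoderm sums of 6545 and 8491 against 2993 to 3248 in arrays 1 to 5. The ES marker sum was highest in sorted cells and lowest at day 14, at 45876 to 57478 in sorted cells, 25389 to 31759.8 on gelatin, 26616 to 44917 at day 4, 18158 to 42557 at day 8 and 10646 to 19590.1 at day 14, and no marker gene of these lists had a signal of 0. The ratio of 3′ to 5′ probe sets for Gapdh, which rises as RNA is shortened, had medians of 2.91 in sorted cells, 5.18 on gelatin, 3.16 at day 4, 2.27 at day 8 and 2.41 at day 14.

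Day 14 EBs held the lowest mean levels of complexes I, III, IV and V, but not of complex II. Of the 71 members, 40 had their lowest group mean at day 14, against 15 in gelatin ES cells, 12 in sorted ES cells and 4 at day 8. The share of all probe sets with their lowest mean at day 14 is not given here, so these counts have no background. By complex, day 14 was lowest for 6 of 7 complex III genes and 11 of 14 complex V genes but for 14 of 29 complex I genes, 7 of 15 complex IV genes and 1 of 4 complex II genes. The highest mean was in sorted ES cells for 25 members and at day 8 for 20.

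To place each array, every member's log2 signal was set against its mean over all arrays and averaged within a complex. At day 14 this level was -0.43 ± 0.12 (SD, n = 6) for complex III and -0.36 ± 0.06 for complex V. All 6 day 14 arrays lay below every array of the other groups for both of these complexes, the next lowest array being a day 8 one at -0.17 for complex III and a day 4 one at -0.12 for complex V. Complex I stood at -0.21 ± 0.08 and complex IV at -0.21 ± 0.05, where the day 14 range overlapped that of at least 1 other group. Complex II ran from -0.17 to 0.14 at day 14, within the range of the other groups. Its mean level was lowest in sorted ES cells, at -0.16, against -0.01 at day 14.

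**Figure D1:**
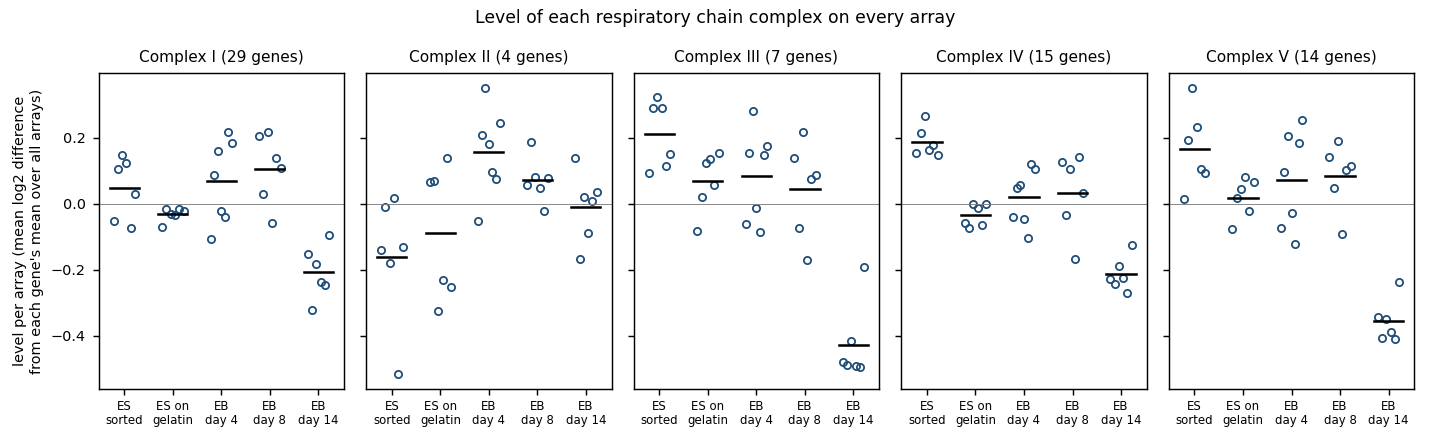
Level of each complex on each of the 31 arrays, as the mean over its genes of log2 signal minus the gene's mean over all arrays (vertical axis), by group (horizontal axis). Circles are arrays and bars are group means. The day 14 circles for complexes III and V sit below all others, between -0.49 and -0.19 and between -0.41 and -0.24.

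**Figure D2:**
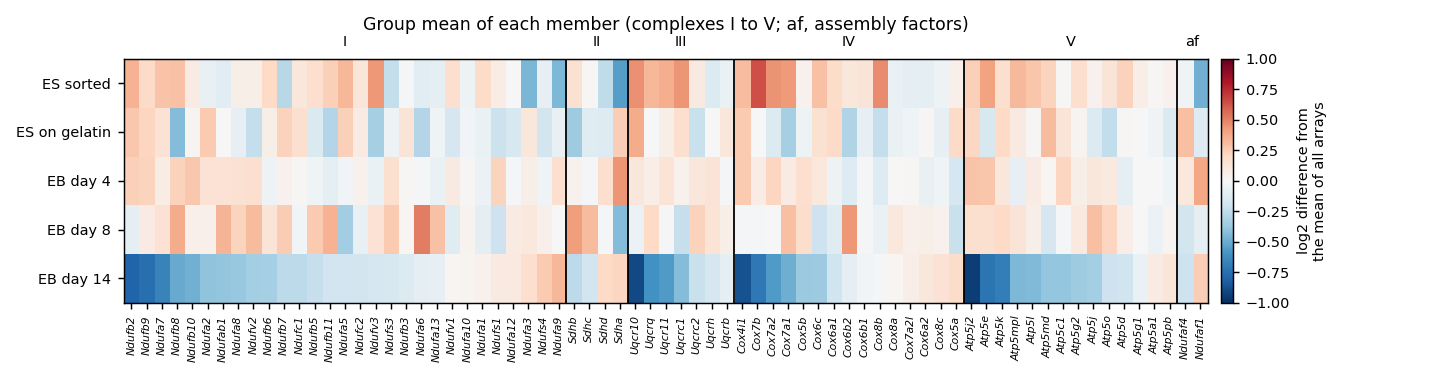
Group mean log2 signal of each of the 71 members relative to its mean over all arrays (colour scale, log2 units), with genes along the horizontal axis by complex and groups down the vertical axis. Day 14, at the bottom, is the lowest group for 40 members. The share over all probe sets is not given here.

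More members fell from day 8 to day 14 than over any earlier step. Of the 71 members, 41 fell and 4 rose, where 11.9 % of all probe sets fell and 20.1 % rose. The members' median change was -0.38, against 0.03 over all probe sets. High signal alone was accompanied by more falls, since 19.4 % of all probe sets above the 75th percentile of signal fell, compared with 30 of the 44 members there (68.2 %). The count rested in part on the split among the day 8 arrays: against arrays 2, 4 and 6 alone 21 members fell, 0 rose and the median change was -0.30, and against arrays 1, 3 and 5 alone 42 fell, 4 rose and the median was -0.47. The 21 were among the 41 and also fell under every other setting tried. Over the same step 8 of 10 ES cell markers fell, 5 of 9 endoderm, 6 of 13 fibroblast and 6 of 10 neural markers rose, 1 fibroblast and 1 of 7 erythroid markers fell, and 2 of 18 cardiac markers rose and 3 fell. Endoderm sums were 16792 to 31909 at day 8 and 32682 to 41612 at day 14, fibroblast sums 5477 to 17103 and 23773 to 39314, and neural sums 8581 to 10681 and 12345 to 22314. The part of this change in cell makeup in the fall of the chain was not tested.

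**Figure D3:**
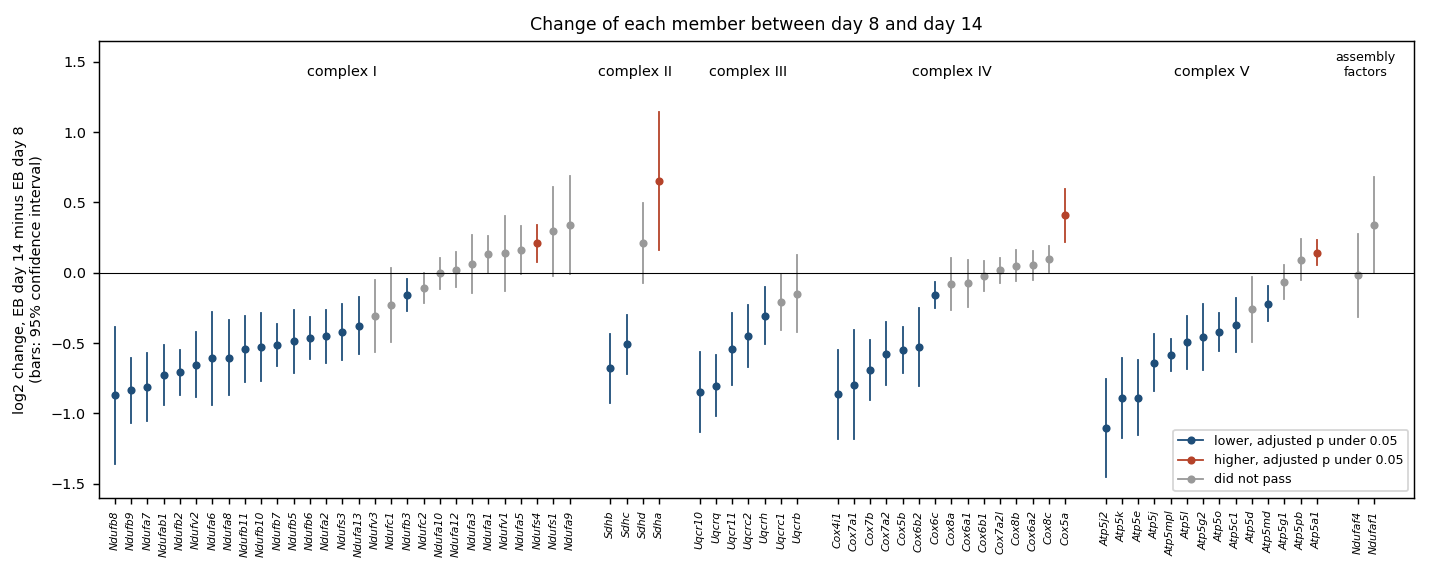
Log2 change from EB day 8 to EB day 14 (vertical axis) for each of the 71 members, ordered within complexes (horizontal axis). Points are estimates from 6 arrays a group, bars are 95 % confidence intervals, and the 41 blue and 4 red points are members that fell and rose, with Atp5j2 the lowest at -1.10.

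In complex I, 17 of 29 genes fell between day 8 and day 14 and 1 rose. Of its accessory subunits, the proteins that surround the catalytic core, 15 of 25 fell (median change -0.45). Ndufb2 (membrane arm, chr6:39592565-39599843) ran from 3802 to 4859.6 in sorted ES cells (median 4318), from 3564 to 4663 on gelatin (median 4129.5), from 3681 to 4473 at day 4 (median 3896), from 2857 to 3376 at day 8 (median 3216) and from 1743 to 2488 at day 14 (median 1849). The day 14 range lay below that of each other group, and the change from day 8 was -0.71 ± 0.08, adjusted p = 4.72e-07. Ndufb9 and Ndufa7, further accessory subunits, fell by 0.84 and 0.81 on the log2 scale, also without overlap between the groups. So did Ndufab1, the mitochondrial acyl carrier protein, with a change of -0.73, and Ndufa13, also known as GRIM-19, with -0.38, the latter call being lost against day 8 arrays 2, 4 and 6 alone (-0.33, adjusted p = 0.119). Ndufb8, a membrane arm subunit, ran from 1195 to 2751 at day 8 (median 2079) and from 865 to 1301 at day 14 (median 1017), and its change of -0.87 was lost against day 8 arrays 2, 4 and 6 alone (-0.58, adjusted p = 0.255).

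The 4 core subunits measured, all of the arm that reaches into the matrix, were split. Ndufv2, which binds an iron-sulfur cluster, fell by 0.66 (SE 0.12, adjusted p = 0.000133) and Ndufs3 by 0.42 (SE 0.10, adjusted p = 0.00262), the latter without passing against day 8 arrays 2, 4 and 6 alone (adjusted p = 0.12). Ndufv1, which binds NADH and flavin, changed by 0.14 (95 % interval -0.13 to 0.40), and Ndufs1, which carries several iron-sulfur clusters, by 0.29 (-0.02 to 0.61). Neither of these passed the test, though Ndufs1 passed as a rise when only the day 8 and day 14 arrays were fitted (adjusted p = 0.0293).

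Ndufs4, an accessory subunit whose loss in mice is used as a model of Leigh syndrome, went the other way. It ran from 217 to 278 in sorted ES cells (median 267), from 214 to 265 on gelatin (median 244), from 216 to 295 at day 4 (median 265), from 259 to 290.3 at day 8 (median 283) and from 295 to 340.1 at day 14 (median 326). The day 14 arrays were above every array of the earlier groups. Ndufs4 signals were low, the 25th percentile of mean signal over all probe sets being 234. From day 8 the change was 0.21 ± 0.07, adjusted p = 0.019, which did not pass after quantile normalization (0.13, adjusted p = 0.163), after median centring (0.12, adjusted p = 0.143) or without EB day 8 array 5 (adjusted p = 0.0531), whereas from gelatin ES cells it was 0.44 ± 0.07, adjusted p = 4.22e-06. The gene lies at chr13:114287795-114388094.

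Complex II, succinate dehydrogenase, has no subunit in mitochondrial DNA and belongs also to the citric acid cycle, and its 4 genes did not move as 1 block. Sdhb, the iron-sulfur subunit (chr4:140961271-140979198), ran from 4506 to 5828 in sorted ES cells (median 5318), from 3239 to 4174 on gelatin (median 3626), from 3474 to 6458 at day 4 (median 4467), from 5229 to 7353 at day 8 (median 6315) and from 3388 to 4514 at day 14 (median 3868). It was low on gelatin, high at day 8 and low again at day 14, with no overlap between the last 2 groups and a change of -0.68 ± 0.13, adjusted p = 0.00019. Sdhc, which anchors the enzyme in the membrane (chr1:171129157-171150640), ran from 1635 to 2087 in sorted ES cells (median 1817), from 1655 to 1712 on gelatin (median 1679), from 1492 to 2433 at day 4 (median 1738), from 1732 to 2612 at day 8 (median 2416) and from 1525 to 1739 at day 14 (median 1573). It fell by 0.51 between day 8 and day 14 (SE 0.11, adjusted p = 0.000675), a call lost against day 8 arrays 2, 4 and 6 alone (adjusted p = 0.0997).

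The flavoprotein subunit Sdha (chr13:74322255-74350240) ran from 272 to 679 in sorted ES cells (median 601), from 592 to 1258 on gelatin (median 917), from 501 to 1476 at day 4 (median 1143), from 445 to 791 at day 8 (median 502) and from 655 to 1010.2 at day 14 (median 909). It was low in sorted cells and at day 8, and the groups overlapped at each step. The rise from day 8 to day 14 of 0.65 ± 0.25, adjusted p = 0.0454 was close to the threshold and was lost without EB day 8 array 1, 3, 5 or 6 or EB day 14 array 1, 3, 4, 5 or 6, 1 at a time (highest adjusted p = 0.0993) and after quantile normalization (adjusted p = 0.0611) or median centring (adjusted p = 0.0572). Sdhd, the other membrane anchor (chr9:50596340-50603849), ran from 2318 to 5074 in sorted ES cells (median 4100.3), from 3682 to 4975 on gelatin (median 4401), from 4387 to 6051 at day 4 (median 5225), from 3536 to 5956 at day 8 (median 4703) and from 4695 to 6144 at day 14 (median 5401). Its ranges at day 8 and day 14 overlapped and its change of 0.21 did not pass (95 % interval -0.08 to 0.50).

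In complex III, 5 of 7 genes fell between day 8 and day 14 and 0 rose (median change -0.45). Uqcr10, a small subunit of the cytochrome bc1 complex (chr11:4701968-4704344), ran from 4225 to 5737 in sorted ES cells (median 5143), from 3428 to 6248 on gelatin (median 4857), from 3111 to 5477 at day 4 (median 4126), from 2726 to 4332 at day 8 (median 3842) and from 1677 to 2528 at day 14 (median 1898). Every day 14 array lay below every other array for this gene, and the change from day 8 was -0.85 ± 0.15, adjusted p = 8.36e-05. Uqcrq, another small subunit (chr11:53427922-53430831), ran from 6458 to 9027 in sorted ES cells (median 7528), from 5546 to 6199 on gelatin (median 6018), from 4976 to 7882 at day 4 (median 6733), from 5735 to 8070.5 at day 8 (median 7066) and from 3380.1 to 4716 at day 14 (median 3815). It likewise had its whole day 14 range below the other groups, with a change of -0.80 ± 0.11, adjusted p = 5.83e-06. Uqcr11 fell by 0.54, Uqcrc2, a core protein, by 0.45 and Uqcrh, the hinge protein, by 0.30, and these calls were lost against day 8 arrays 2, 4 and 6 alone (adjusted p = 0.144, 0.188 and 0.267). That of Uqcrh was also lost without EB day 8 array 3 or EB day 14 array 2 or 3 (adjusted p = 0.0688, 0.0653 and 0.0512). Uqcrc1, the other core protein, changed by -0.21 (-0.41 to -0.01) and Uqcrb by -0.15 (-0.42 to 0.12), neither passing. Uqcrc1 passed as a fall after quantile normalization (-0.31, adjusted p = 0.0466) and median centring (-0.30, adjusted p = 0.0315). It also passed against day 8 arrays 1, 3 and 5 alone (-0.42, adjusted p = 0.00258).

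In complex IV, cytochrome c oxidase, 7 of 15 genes fell between day 8 and day 14 and 1 rose (median change -0.08). Cox4i1, through which ATP slows the enzyme (chr8:120668225-120674209), ran from 2631 to 3973 in sorted ES cells (median 3448), from 2781 to 3741 on gelatin (median 3248), from 2231 to 3964 at day 4 (median 3478), from 1629 to 3995 at day 8 (median 2709) and from 1379 to 1614 at day 14 (median 1458). The 6 day 14 arrays lay in a narrow range below every other array, while the day 8 arrays spread widely. The change from day 8 was -0.86 ± 0.16, adjusted p = 0.000216, which did not pass against day 8 arrays 2, 4 and 6 alone (-0.45, adjusted p = 0.0563). Cox7b (chrX:106015700-106022450), a small subunit needed for assembly of the enzyme, ran from 5596 to 8625 in sorted ES cells (median 7385), from 4369 to 4972 on gelatin (median 4543), from 4048 to 5716 at day 4 (median 4804), from 3647 to 5303 at day 8 (median 4794) and from 2492 to 3937 at day 14 (median 2654). Its signal stepped down between sorted and gelatin ES cells and again at day 14, where the change from day 8 was -0.69 ± 0.11, adjusted p = 2.83e-05. Cox5b fell by 0.55 (SE 0.08, adjusted p = 2.07e-05), whereas Cox5a, a subunit on the matrix side, rose by 0.41 (SE 0.10, adjusted p = 0.0019) without overlap between the groups. The Cox5a call held after both other scalings, but its probe set was dim (percentile 15.8 of signal), and the call was lost with the floor at the 25th percentile (adjusted p = 1) and against day 8 arrays 2, 4 and 6 alone (0.35, adjusted p = 0.0624).

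In complex V, 10 of 14 genes fell between day 8 and day 14 and 1 rose (median change -0.44). In the membrane part and the outer stalk 8 of 10 genes fell, and in the catalytic head with its central stalk 2 of 4, a difference that was not tested. Of these 4 genes only Atp5a1 belongs to the head itself. Atp5j2, subunit f of the membrane part (chr5:145183704-145191541), ran from 436 to 732 in sorted ES cells (median 565), from 443 to 787 on gelatin (median 552), from 348 to 820.4 at day 4 (median 625), from 363 to 723 at day 8 (median 542) and from 231 to 273 at day 14 (median 245). Its day 14 signals were less than any other array's, and the change from day 8 of -1.10 ± 0.18, adjusted p = 3.89e-05 was the largest of the 71. Atp5k, subunit e, which helps ATP synthase pair into dimers, ran from 1059.7 to 1521 at day 8 (median 1352) and from 635 to 778 at day 14 (median 714). Its change was -0.89 ± 0.14, adjusted p = 4.36e-05, with no overlap, and Atp5l, subunit g, its partner in the dimer, fell by 0.50. Atp5o, which joins the stalk to the head, fell by 0.42 and Atp5j, a stalk subunit, by 0.64.

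In the central stalk, Atp5e, the epsilon subunit (chr2:174461075-174464101), ran from 792 to 1245 in sorted ES cells (median 1067), from 581 to 883 on gelatin (median 679.6), from 755 to 1381 at day 4 (median 861), from 762 to 1076 at day 8 (median 811) and from 392 to 638 at day 14 (median 452). The day 8 and day 14 ranges did not overlap, and the change was -0.89 ± 0.14, adjusted p = 2.22e-05. Atp5c1, the gamma subunit that turns inside the head, fell by 0.37, a call lost against day 8 arrays 2, 4 and 6 alone (-0.27, adjusted p = 0.163), and Atp5a1, the alpha subunit and one of the brightest members, changed by 0.14 (SE 0.05, adjusted p = 0.0198), a rise that was lost after median centring (0.05, adjusted p = 0.403) and without EB day 14 array 3 or 4 (adjusted p = 0.054 and 0.0604). The Atp5a1 rise was also lost against day 8 arrays 1, 3 and 5 alone (0.13, adjusted p = 0.1) and against arrays 2, 4 and 6 alone (0.16, adjusted p = 0.0934). The genes for subunit c, which forms the rotating ring, differed: Atp5g2 ran from 3297 to 4478 in sorted ES cells (median 3798), from 2876 to 3925 on gelatin (median 3424), from 2569 to 4441 at day 4 (median 3437), from 2870.0 to 4175 at day 8 (median 3744) and from 2474 to 2852 at day 14 (median 2545), whereas Atp5g1 ran from 563 to 663 in sorted ES cells (median 576), from 534 to 591 on gelatin (median 578), from 485 to 659 at day 4 (median 573), from 522 to 598 at day 8 (median 579.5) and from 489.9 to 604 at day 14 (median 539). Atp5g2 fell by 0.46 (SE 0.12, adjusted p = 0.00432), a call lost against day 8 arrays 2, 4 and 6 alone (adjusted p = 0.27), and Atp5g1 changed by -0.07 (-0.19 to 0.06). The mature proteins of these genes are alike and the difference between their changes was not tested. The probe set of Atp5g2 carries the suffix f, which marks probes shared among related sequences. That of Atp5g1 carries the suffix r, which marks a broken design rule. Each gene had 2 probe sets, of which only the brighter is described here.

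The promoters of the members were searched for binding motifs of factors known to act on respiratory chain genes. RefSeq promoters of GRCm38.p6, from 250 bases before to 50 after the transcript start, matched 58 of the 71 members. Exact matches on either strand were counted for GCGCATGC (nuclear respiratory factor 1, NRF1), CCGGAAG (ETS factors such as GABP, also called NRF2), AAGATGGC (YY1) and TCAAGGTCA (oestrogen-related receptors), none of which contains another. NRF1 matches occurred in 17.2 % of the members (10 promoters) against 2.8 % of all 27025 promoters and 4.65 % of the genes on the array. ETS matches occurred in 25.9 % (15 promoters) against 9.12 % and 15.5 %. YY1 matches occurred in 12.1 % (7 promoters) against 2.88 % and 4.15 %, and receptor matches in 1.72 % (1 promoter) against 0.407 % and 0.288 %. Among the 33 matched members that fell between day 8 and day 14, 7 held the NRF1 letters (21.2 %) and 10 the ETS letters (30.3 %). The YY1 letters were held by 2 (6.06 %) and the receptor letters by 0. Among the 25 others the counts were 3 (12 %), 5 (20 %), 5 (20 %) and 1 (4 %) in the same order. A match is a run of letters and not a site shown to be bound.

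The 5 members whose promoters held both the NRF1 and the ETS letters are shown because they cover 4 of the 5 complexes and include genes that fell and one that did not pass. Each stretch runs 5′ to 3′ on the gene's own strand from 250 bases before to 24 after the start, with the matches in capitals on whichever strand they read. In Atp5k and Cox6a1 the NRF1 letters read on both strands and overlap as 10 bases.
Atp5k, chr5:108434376-108434649 on the reverse strand: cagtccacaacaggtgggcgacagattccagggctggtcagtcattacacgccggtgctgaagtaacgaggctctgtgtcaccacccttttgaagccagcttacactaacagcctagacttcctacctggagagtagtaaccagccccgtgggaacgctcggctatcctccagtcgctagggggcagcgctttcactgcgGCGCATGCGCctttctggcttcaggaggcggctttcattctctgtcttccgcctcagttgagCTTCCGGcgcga
Atp5l, chr9:44920719-44920992 on the reverse strand: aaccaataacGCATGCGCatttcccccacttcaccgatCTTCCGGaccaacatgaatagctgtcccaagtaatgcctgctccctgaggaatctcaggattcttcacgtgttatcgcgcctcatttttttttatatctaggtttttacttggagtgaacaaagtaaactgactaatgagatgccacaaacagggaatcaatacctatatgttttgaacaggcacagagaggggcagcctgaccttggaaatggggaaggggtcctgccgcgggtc
Cox6a1, chr5:115348935-115349208 on the reverse strand: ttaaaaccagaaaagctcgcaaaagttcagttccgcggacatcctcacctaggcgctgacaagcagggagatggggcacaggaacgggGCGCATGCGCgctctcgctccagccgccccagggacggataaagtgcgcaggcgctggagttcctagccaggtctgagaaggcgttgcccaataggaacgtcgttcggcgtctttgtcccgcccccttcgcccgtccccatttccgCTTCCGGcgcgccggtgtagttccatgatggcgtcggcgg
Sdhb, chr4:140961021-140961294 on the forward strand: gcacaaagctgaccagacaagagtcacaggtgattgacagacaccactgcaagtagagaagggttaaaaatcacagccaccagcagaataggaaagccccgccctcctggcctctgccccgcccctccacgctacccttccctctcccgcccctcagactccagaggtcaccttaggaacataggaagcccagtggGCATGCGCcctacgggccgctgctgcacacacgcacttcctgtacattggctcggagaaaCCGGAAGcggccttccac
Uqcr11, chr10:80406798-80407071 on the reverse strand: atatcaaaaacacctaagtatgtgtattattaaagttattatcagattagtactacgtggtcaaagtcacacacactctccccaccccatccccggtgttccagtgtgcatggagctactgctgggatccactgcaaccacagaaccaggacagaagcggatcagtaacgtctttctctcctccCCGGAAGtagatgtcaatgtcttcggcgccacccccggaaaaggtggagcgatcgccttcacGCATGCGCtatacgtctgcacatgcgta
Of these genes Atp5k, Atp5l, Sdhb and Uqcr11 fell between day 8 and day 14, as given above, and Cox6a1 did not pass. Atp5l has a further ETS match just past the stretch shown.

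Against the gelatin ES cells from which the EBs were grown, day 14 EBs had 31 members lower and 6 higher, where 23.2 % of all probe sets were lower and 21.8 % higher. This comparison shares the day 14 arrays with the one from day 8 and is no separate support for it. The median change was -0.17. Among bright probe sets the background was nearer, since 33.1 % of all probe sets above the 75th percentile of signal were lower, compared with 22 of the 44 members there (50 %). By complex, 12 of 29 genes of complex I were lower and 2 higher, 0 of 4 of complex II passed, 4 of 7 of complex III were lower and 0 higher (median change -0.60), 6 of 15 of complex IV were lower and 2 higher, and 8 of 14 of complex V were lower and 2 higher (median change -0.41). All 12 lower complex I genes were accessory ones. Beside these changes, 9 of 9 endoderm and 12 of 18 cardiac markers were higher and 7 of 10 ES markers lower at day 14, 1 cardiac marker was lower, and fibroblast markers were split, with 4 higher and 6 lower of 13, as were neural markers, with 4 higher and 4 lower of 10. Of 7 erythroid markers 3 were higher. The Gapdh 3′/5′ ratio was 3.48 to 6.85 on gelatin and 2.06 to 2.68 at day 14, without overlap. Their part in the result was not tested.

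The largest falls from gelatin ES cells were those of Uqcr10, which was 2.42-fold lower at day 14 (-1.27 ± 0.15, adjusted p = 4.39e-08), Atp5j2, 2.22-fold lower (-1.15 ± 0.18, adjusted p = 5.55e-06), Cox4i1, 2.2-fold lower (-1.14 ± 0.16, adjusted p = 1.62e-06), and Ndufb2, 2.1-fold lower (-1.07 ± 0.08, adjusted p = 2.68e-11). Each of them belongs to a different complex, and in each the groups did not overlap. The next brightest probe sets of Cox4i1 and Ndufb2 did not pass, with changes of 0.14 and -0.16. The 4 succinate dehydrogenase genes did not pass, with changes of -0.03 for Sdha (-0.52 to 0.46), 0.10 for Sdhb (-0.15 to 0.35), -0.07 for Sdhc (-0.28 to 0.13) and 0.33 for Sdhd (0.04 to 0.61). Sdhd passed as higher after quantile normalization (0.40, adjusted p = 0.00642) and when only the compared groups were fitted (0.33, adjusted p = 0.00861). The wide interval of Sdha leaves a change of either sign possible. Atp5pb, subunit b of the stalk that holds the head in place, ran from 233 to 269.8 in sorted ES cells (median 248), from 198 to 231 on gelatin (median 220.0), from 199 to 278 at day 4 (median 228), from 215 to 279 at day 8 (median 249) and from 246 to 267 at day 14 (median 265). It was higher at day 14 than on gelatin by 0.26 (SE 0.08, adjusted p = 0.00545) without overlap, but its probe set was dim (percentile 25.9 of signal).

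**Figure D4:**
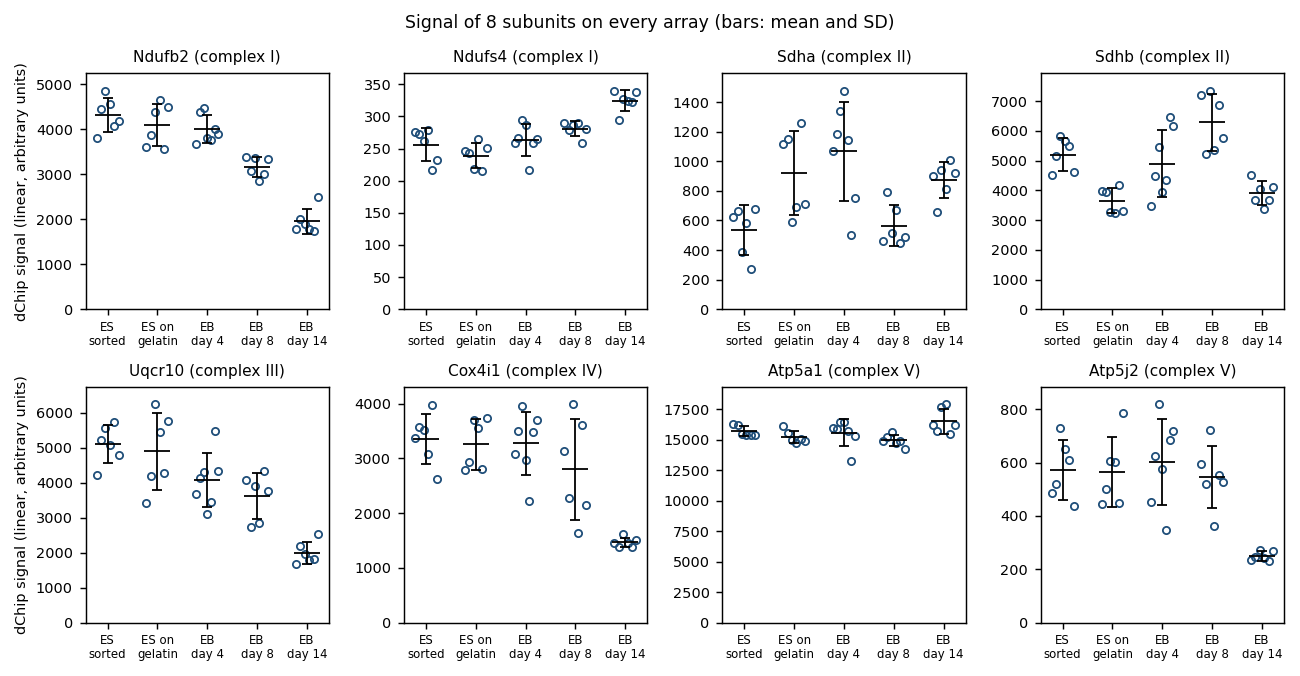
Normalized signal (linear axis from 0, arbitrary units) of 8 subunits on each array, by group. Circles are arrays and bars are mean and SD. Day 14 arrays lie below every gelatin array for Ndufb2, Uqcr10, Cox4i1 and Atp5j2 and above every one for Ndufs4 (other probe sets of Cox4i1 and Ndufb2, not drawn, did not pass), and overlap them for Sdha, Sdhb and Atp5a1.

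Against sorted ES cells, 42 members were lower at day 14 and 9 higher, where 24 % of all probe sets were lower and 24.8 % higher. Above the 75th percentile of signal 27 % of all probe sets were lower, compared with 29 of the 44 members there (65.9 %). The median change was -0.37, and 7 members were lower by at least 1 on the log2 scale, led by Uqcr10 (-1.36 ± 0.15, adjusted p = 1.45e-08) and Cox7b (-1.36 ± 0.11, adjusted p = 6.89e-11). Complex III and complex V had 5 of 7 and 11 of 14 genes lower and 0 higher. The higher members included Ndufa9 (0.79), which sits at the joint of the complex I arms, Sdha (0.77), Ndufa3 (0.63) and the assembly factor Ndufaf1 (0.73). In this comparison 10 of 10 ES markers were lower (median -2.44), 9 of 9 endoderm markers higher (median 4.60), and 12 of 18 cardiac markers higher and 2 lower. Fibroblast markers gave 6 higher and 5 lower of 13, neural markers 5 and 3 of 10, and erythroid markers 3 and 2 of 7. The part of this makeup in the changes was not tested.

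Sorted and gelatin ES cells, both undifferentiated, also differed. In gelatin cells 23 members were lower and 5 higher, where 18.2 % of all probe sets were lower and 21.4 % higher, with a median change of -0.10. Leaving out sorted array 3 left 15 lower. Ndufv3, an accessory subunit at the NADH-binding tip of complex I, ran from 1241 to 1765 in sorted ES cells (median 1474), from 816 to 981 on gelatin (median 858), from 782 to 1589 at day 4 (median 920.0), from 913 to 1464 at day 8 (median 1281) and from 915 to 1059.6 at day 14 (median 973). Sorted cells were above gelatin cells on every array, with a change of -0.76 ± 0.13, adjusted p = 3.07e-05. Ndufa3, a membrane arm subunit, ran from 3739 to 5797 in sorted ES cells (median 4297), from 5531 to 7377 on gelatin (median 6796), from 4977 to 7224 at day 4 (median 6536), from 5332 to 7979 at day 8 (median 6525) and from 6339.9 to 7169 at day 14 (median 6867). It was higher on gelatin by 0.57 (SE 0.10, adjusted p = 7.31e-05), the ranges overlapping slightly, and its medians stayed near that level in the EBs. Sdhb was lower on gelatin (-0.51 ± 0.13, adjusted p = 0.00192) and Sdha higher (0.80 ± 0.25, adjusted p = 0.0118), and Cox7b (-0.65 ± 0.11, adjusted p = 2.12e-05) and Cox7a2 (-0.59 ± 0.11, adjusted p = 0.000136) were lower without overlap.

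The same 2 groups differed in RNA and makeup. The Gapdh 3′/5′ ratio ran from 2.76 to 3.09 in sorted and from 3.48 to 6.85 in gelatin cells, without overlap. In gelatin cells 7 of 13 fibroblast markers were higher and 1 lower, with sums of 16915 to 30266 against 7862 to 11743, 6 of 10 neural markers were higher and 7 of 10 ES markers lower. The part of these in the differences between the ES cell groups was not tested.

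From gelatin ES cells to day 4, few members moved: 9 rose and 5 fell, where 7.95 % of all probe sets rose and 16.3 % fell. The split depended on the scaling, with 22 higher and 2 lower after quantile normalization and 18 higher and 2 lower after median centring. Leaving out EB day 4 array 3 left 5 higher, array 4 left 2 lower, and gelatin arrays 3 or 6 or EB day 4 array 1 left 3 lower, and without EB day 4 arrays 6 and 7 there were 5 each way. Atp5o was higher (0.34) and Atp5md, a small membrane subunit of ATP synthase, lower (-0.30), both without overlap. Over the same step 8 of 13 fibroblast and 5 of 10 neural markers fell, 4 of 10 ES markers rose, and 1 of 18 cardiac markers rose and 1 fell, while the median Gapdh 3′/5′ ratio went from 5.18 to 3.16. Their part in the counts was not tested.

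From day 4 to day 8, 9 members rose and 8 fell, where 11.9 % of all probe sets rose and 12.6 % fell. Sdha fell by 0.88 (adjusted p = 0.00794) while Sdhb rose by 0.38 (adjusted p = 0.0227) and Sdhc by 0.33 (adjusted p = 0.0186), each with overlapping groups. Ndufb2 fell by 0.33 without overlap (adjusted p = 0.00238), before its further fall to day 14. Both sets of divided arrays bear on these counts: without EB day 4 arrays 6 and 7 there were 16 higher and 13 lower, with day 8 arrays 2, 4 and 6 alone 2 higher and 8 lower, and with day 8 arrays 1, 3 and 5 alone 11 higher and 6 lower. The calls on Sdha, Sdhb and Sdhc were lost against day 8 arrays 2, 4 and 6 alone (adjusted p = 0.13, 0.421 and 0.429), that on Sdhb also without EB day 4 array 1 or 4 or EB day 8 array 1, 3 or 5 (highest adjusted p = 0.0613), and that on Sdhc without EB day 8 array 1 (adjusted p = 0.0536). Without EB day 4 array 2, 3 or 5, 5 members were lower. Over this step 9 of 9 endoderm markers rose (median 2.95), 5 of 10 ES markers fell, 4 of 10 neural markers fell and 1 rose, 5 of 13 fibroblast markers rose and 4 fell, and 3 of 7 erythroid markers rose. Their part in the counts was not tested.

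Several complex IV subunits exist as a general form and a form of heart and skeletal muscle or of testis, and all those named on the array were compared. Cardiac genes were higher in the later EBs: 10 of 18 cardiac markers rose and 2 fell from day 4 to day 8, and 12 were higher and 1 lower at day 14 than on gelatin, among them the cardiac troponin gene Tnnt2 (2.89) and the myosin light chain gene Myl7 (1.09). Their sum had medians of 7525 at day 4, 12369 at day 8 and 12223 at day 14. Of the muscle forms Cox6a2, Cox7a1 and Cox8b, only Cox8b was higher at day 14 than on gelatin.

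Cox6a2, the muscle form of subunit VIa, ran from 544 to 601 in sorted ES cells (median 576), from 566 to 653 on gelatin (median 625), from 542 to 624 at day 4 (median 589), from 544 to 693 at day 8 (median 656) and from 611 to 724 at day 14 (median 651). It was higher at day 14 than in sorted cells (0.20 ± 0.05, adjusted p = 0.00288), a call lost after quantile normalization (adjusted p = 0.106) and median centring (adjusted p = 0.13). Its general counterpart Cox6a1 ran from 6196 to 8059 in sorted ES cells (median 7067), from 6724 to 7539.6 on gelatin (median 7291), from 5375 to 6791 at day 4 (median 6359), from 4376 to 7119.5 at day 8 (median 6035) and from 4909 to 6276 at day 14 (median 5509), and changed from day 8 to day 14 by -0.07 (-0.24 to 0.09).

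Cox7a1, the muscle form of subunit VIIa, was dim and ran from 101 to 151 in sorted ES cells (median 122), from 52.3 to 94.1 on gelatin (median 67.7), from 69.8 to 130.4 at day 4 (median 87.5), from 52.9 to 175 at day 8 (median 118) and from 50.9 to 76.5 at day 14 (median 62.7). It was lowest on gelatin and at day 14, and fell from day 8 by 0.80 (SE 0.20, adjusted p = 0.00325), but the probe set lay below the 25th percentile of signal and the call was lost against day 8 arrays 2, 4 and 6 alone (adjusted p = 0.358). Cox7a2, the general form, ran from 4575 to 6355 in sorted ES cells (median 5516), from 3248 to 4310.3 on gelatin (median 3631), from 3472 to 6111 at day 4 (median 4855), from 3297 to 4665 at day 8 (median 4117) and from 2445 to 3352 at day 14 (median 2605). Its day 14 range lay below that of sorted cells, and the change from day 8 was -0.57 ± 0.11, adjusted p = 0.00034. Cox7a2l, a related protein that joins complexes III and IV into supercomplexes, ran from 5107 to 5895 in sorted ES cells (median 5575), from 5506 to 6101 on gelatin (median 5621), from 5551 to 6452 at day 4 (median 5860.0), from 5661 to 6714 at day 8 (median 5950.1) and from 5701 to 6457 at day 14 (median 6155). It moved little, with a change of 0.02 from day 8 to day 14 (-0.07 to 0.10).

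Cox8b, the muscle form of subunit VIII, ran from 707 to 837 in sorted ES cells (median 769.9), from 447 to 496 on gelatin (median 465), from 471 to 539 at day 4 (median 517), from 462 to 591 at day 8 (median 536) and from 520.1 to 569 at day 14 (median 547). It was highest in sorted ES cells, before any differentiation, then lower on gelatin (-0.71 ± 0.06, adjusted p = 9.09e-11) and higher again at day 14 than on gelatin (0.22 ± 0.06, adjusted p = 0.00231). The probe set of Cox8b carries a suffix letter, by which the maker marks one that may hybridise with other transcripts or breaks a design rule. Cox8a, the general form, ran from 257 to 361 in sorted ES cells (median 322), from 289 to 340.0 on gelatin (median 318), from 279 to 446 at day 4 (median 328), from 292 to 404 at day 8 (median 370.3) and from 293 to 376 at day 14 (median 338), and changed by -0.08 from day 8 to day 14 (-0.27 to 0.10). Cox8c, known from testis, ran from 1403 to 1603 in sorted ES cells (median 1516), from 1339 to 1611 on gelatin (median 1469.5), from 1404 to 1668 at day 4 (median 1480.2), from 1528 to 1726 at day 8 (median 1608) and from 1611 to 1804 at day 14 (median 1739). Its median was highest at day 14, with a change from gelatin of 0.23 ± 0.05, adjusted p = 0.00024.

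Cox6b2, the testis form of subunit VIb, ran from 1278 to 1581 in sorted ES cells (median 1473), from 883 to 1322 on gelatin (median 1142), from 982 to 1947 at day 4 (median 1064), from 1542 to 2019 at day 8 (median 1890.0) and from 1139.6 to 1397 at day 14 (median 1241). It rose from day 4 to day 8 (0.57 ± 0.14, adjusted p = 0.00288) and fell to day 14 (-0.53 ± 0.14, adjusted p = 0.00555), both calls being lost with day 8 arrays 2, 4 and 6 alone (adjusted p = 0.0777 and 0.183). The probe set of Cox6b2 also carries a suffix letter. Cox6b1, the general form, ran from 1203 to 1391 in sorted ES cells (median 1276), from 1036 to 1210.4 on gelatin (median 1105), from 1075 to 1272 at day 4 (median 1155), from 1029.8 to 1258 at day 8 (median 1182) and from 1006 to 1244 at day 14 (median 1148), with a change from day 8 to day 14 of -0.02 (-0.13 to 0.08).

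Probe sets of the same gene did not always move alike. Of the 71 genes, 20 had further probe sets, 27 in all, and 13 of these lay below the 25th percentile of signal. Between day 8 and day 14 both the chosen and the further probe set passed in the same direction in 3 cases and in opposite directions in 0, for day 14 against gelatin in 6 and 1, and for day 14 against sorted cells in 9 and 0. For gelatin against sorted cells the cases were 3 and 3, for day 8 against day 4 they were 1 and 2, and for day 4 against gelatin 0 and 0. A dimmer probe set of Cox4i1, with a mean signal of 449, changed by 0.14 from gelatin to day 14 (adjusted p = 0.107), where the brighter one changed by -1.14. A second bright probe set of Ndufb2, with a mean signal of 2050.2, changed by -0.16 (adjusted p = 0.1), where the chosen one changed by -1.07. So the falls of Cox4i1 and Ndufb2 were each seen in the brightest probe set and not in the next, and both of these brightest probe sets carry the suffix f, which marks probes shared among related sequences. Of the 71 chosen probe sets, 19 carried a suffix letter by which the maker marks a probe set that may hybridise with more than 1 transcript or breaks a design rule, and 11 of these 19 fell between day 8 and day 14, as did 30 of the 52 others. Besides those already named, the 19 included the probe sets of Sdhb, Ndufa3, Atp5e, Atp5c1 and Atp5md.

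The proteins that build and feed the chain were followed on lists of related genes. Among 61 mitochondrial ribosome proteins, which translate the subunits encoded in mitochondrial DNA, 39 fell and 2 rose between day 8 and day 14 (median change -0.40). Over this step 11.9 % of all probe sets fell and 20.1 % rose. Of the 61, 35 were lower and 1 higher at day 14 than on gelatin (median -0.31). In that comparison 23.2 % of all probe sets were lower and 21.8 % higher. The assembly factors gave 7 lower and 2 higher of 18 for the step from day 8 (median -0.07), and the cytochrome c and ubiquinone carriers 3 lower and 0 higher of 10 (median -0.21). Pyruvate dehydrogenase and the citric acid cycle, with 2 lower and 3 higher of 16 (median 0.06), and the ATP export and channel genes, with 0 lower and 1 higher of 9 (median 0.04), did not share that pattern. Between sorted and gelatin ES cells the ribosome list was split, with 17 lower and 13 higher, and the carriers gave 4 lower and 1 higher. There 18.2 % of all probe sets were lower and 21.4 % higher. Whether the lists differ from each other was not tested.

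**Figure D5:**
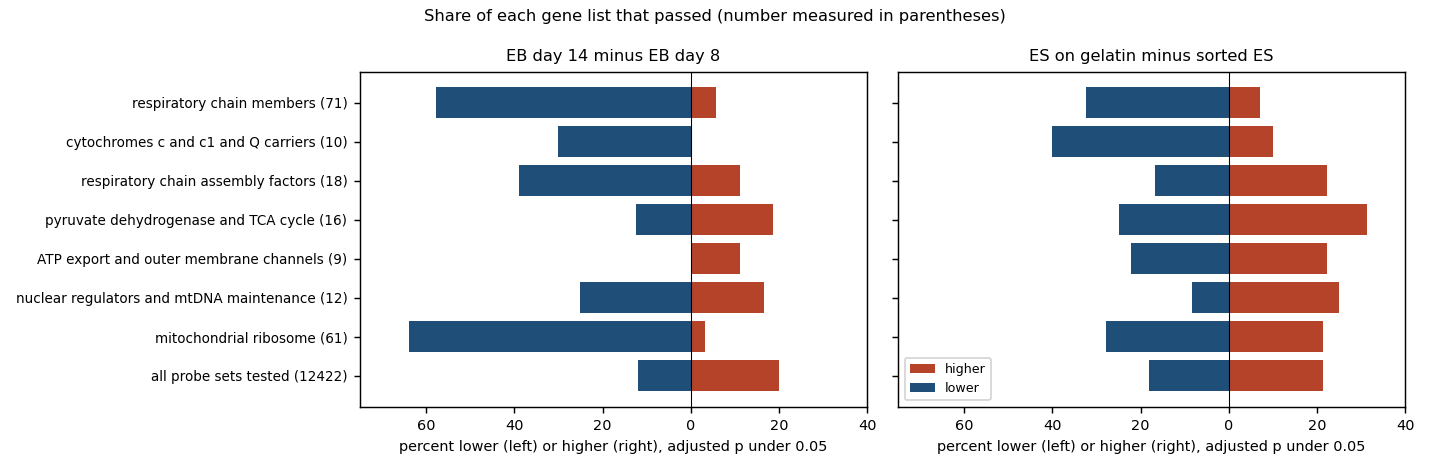
Percentage of the measured genes of each list (vertical axis, number measured in parentheses) that passed as lower, left of 0, or higher, right of 0, from day 8 to day 14 on the left and from sorted to gelatin ES cells on the right. On the left the respiratory chain and the mitochondrial ribosome reach farthest to the lower side, and all probe sets tested stand at 11.9 % lower and 20.1 % higher.

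Within these lists single genes moved far. Cycs, the electron carrier cytochrome c, had median signals of 1597 in sorted cells, 2132 on gelatin, 1555 at day 4, 1185 at day 8 and 951 at day 14, and was lower at day 14 than on gelatin (-1.10 ± 0.13, adjusted p = 1.26e-07). Idh2, the mitochondrial NADP-dependent isocitrate dehydrogenase, had medians of 3507, 1117, 1926, 2621 and 4173 in the same order, with a change of -1.61 ± 0.11, adjusted p = 3.29e-12 between the ES cell groups and 1.82 ± 0.11, adjusted p = 1.75e-13 from gelatin to day 14. The median of Cycs was lowest at day 14 and that of Idh2 highest.

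Of 12 regulators of mitochondrial genes, 2 rose and 3 fell between day 8 and day 14, where 20.1 % of all probe sets rose and 11.9 % fell. Pprc1, a coactivator of the PGC-1 family, had medians of 362, 719.6, 596, 282 and 186, and was lower at day 14 than on gelatin (-1.98 ± 0.21, adjusted p = 1.72e-08). Of the factors whose motifs were searched, Esrra, an oestrogen-related receptor, fell (-0.39 ± 0.08, adjusted p = 0.000933) and Yy1 rose (0.41 ± 0.10, adjusted p = 0.00319), while Gabpa, the DNA-binding part of GABP, changed by 0.17 without passing. No named probe set of Nrf1 was on the array.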

How the data were processed

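RNA from 31 samples was hybridised to Affymetrix MgU74Av2 arrays by the authors, who normalized the probe signals with dChip and deposited 1 linear intensity per probe set and sample. The dChip version, the expression model and the genome build are not given in the sources used here. Groups followed the labels, which give day 14 where the methods text gives another day for the last time point used here. Later time points were not analysed here. The members and lists were chosen with earlier results of these data known.

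Of 12488 probe sets, 66 control probe sets were left out. Of the remaining 12422, 10833 had 1 gene symbol in the platform annotation, 396 had several and were not named, and 1193 had none. Intensities below the 5th percentile of all values (59.6) were set to it and log2 was taken. A floor was needed because 104 values were 0, and it applied to 4 values of members. Nothing was normalized again. limma 3.58.1 in R 4.3.3 was fitted to all 5 groups (lmFit, eBayes with a trend in intensity), with 6 differences between group means and Benjamini-Hochberg adjustment over 12422 probe sets at 0.05. The scripts were tested on simulated data. The arrays carry no read depth, so precision rests on the number of arrays in each group.

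Values by array were given for members with a passing change of at least 1 on the log2 scale in any comparison, for those with the largest passing rise and fall in each complex for gelatin against sorted cells and for day 14 against gelatin, for all 4 genes of complex II, and for tissue forms of complex IV subunits and of subunit c beside their common forms. Other genes were named after their values were seen. Promoters and gene coordinates came from RefSeq tables of GRCm38.p6, and the positions of the probes in the transcripts were not used here. Replicate numbers were taken from the labels and did not pair the samples. The alternatives were quantile normalization, median centring, a floor at the 1st or 25th percentile, no trend in the variance, leaving out dim probe sets, fitting only the groups compared, averaging all probe sets of a gene, a replicate block and leaving out each array. Fits without the divided day 4 and day 8 arrays were added after seeing the data.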

Additional observations from a re-analysis of the deposited data

Results flagged for a closer look

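Of 160 sets of values (a named member's signal or a complex's level within a group), 10 had 1 array far from the rest of its group by Dixon's test, where chance gives about 1 in 20. EB day 14 array 6 was the highest array for Atp5e (638, the next being 475), Cox7b (3937, the next being 2729), Ndufb2 (2488, the next being 2008) and the complex III level (-0.19, the next being -0.41). Without that array the number of members lower at day 14 than at day 8 stayed between 39 and 44, the range over all arrays left out. Each of the other 6 came from a different array. The lowest were Atp5pb in EB day 14 array 1 (246, the next being 263), Ndufs4 in EB day 8 array 5 (259, the next being 279), the complex I level in gelatin array 1 (-0.069, the next being -0.033) and the complex II level in sorted array 5 (-0.52, the next being -0.18). The highest were Cox8a in EB day 4 array 6 (446, the next being 348) and Ndufv3 in gelatin array 3 (981, the next being 869). Causes were not tested.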

How the results depend on the processing

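The fall between day 8 and day 14 was counted in 39 to 44 members when 1 array was left out (median change -0.41 to -0.34) and in 21 against day 8 arrays 2, 4 and 6 alone, where 0 rose. The members that rose at this step numbered 2 to 5 with 1 array left out (2 without EB day 8 array 5 or EB day 14 array 3 or 4), 2 after quantile normalization, with the floor at the 25th percentile or with dim probe sets left out, and 1 after median centring. The median change was -0.48 after quantile normalization and -0.47 both after median centring and against day 8 arrays 1, 3 and 5 alone. For day 14 against gelatin, leaving out 1 array gave 31 to 32 lower and 5 to 8 higher (median -0.21 to -0.14), quantile normalization 10 higher, and leaving out dim probe sets 3 higher. For day 14 against sorted cells, leaving out 1 array gave 39 to 43 lower and 9 higher (median -0.39 to -0.31), and the median was -0.45 after quantile normalization and -0.48 after median centring, a scaling that shifted the overall median by -0.11.

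For gelatin against sorted cells, leaving out 1 array gave 15 to 23 lower and 4 to 6 higher (median -0.13 to -0.07), and quantile normalization 3 higher with a median of -0.20. For day 4 against gelatin, leaving out 1 array gave 5 to 12 higher and 2 to 6 lower (median 0.05 to 0.10), quantile normalization 22 higher and 2 lower (median 0.17), median centring 18 higher and 2 lower, fitting only the compared groups 4 higher, and leaving out EB day 4 arrays 6 and 7 gave 5 higher. For day 8 against day 4, leaving out 1 array gave 6 to 11 higher and 5 to 11 lower, fitting only the compared groups 1 higher and 4 lower, leaving out EB day 4 arrays 6 and 7 gave 16 higher and 13 lower, and day 8 arrays 2, 4 and 6 alone gave 2 higher. The causes were not tested. The fits without the divided arrays hold fewer arrays and were chosen after seeing the data. No passing change reversed.

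Samples with the same replicate number shared only the number: the correlation of their deviations from the group means ran from -0.35 to 0.49 over 60 pairs. With the replicate number as a block, 5 members were higher and 24 lower on gelatin than in sorted cells, 7 and 6 at day 4 against gelatin, 10 and 8 at day 8 against day 4, 3 and 41 at day 14 against day 8, 9 and 43 at day 14 against sorted cells, and 6 and 31 at day 14 against gelatin.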

Other observations

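A further 10 probe sets carried several gene symbols of which at least 1 matched the chosen names, and they were kept out of the members. Between day 8 and day 14, 8 of these 10 were lower and 0 higher (median change -0.37, range -0.78 to 0.09). At day 14 against gelatin 9 were lower and 1 higher (median -0.59), and against sorted cells 8 were lower and 0 higher (median -0.47). Gelatin against sorted cells gave 3 lower and 2 higher. Which gene such a probe set measured cannot be told from the annotation.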
